A study of Mus musculus with 16 samples.

Results

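The angiopoietins and angiopoietin-like genes are a family of secreted proteins, and 8 of them were followed in mouse aorta: Angpt1, Angpt2, Angpt4, Angptl1, Angptl2, Angptl4, Angptl6 and Angptl7. They were picked by name from the gene annotation of the arrays, with earlier results of these data known, and they sit on 12 of 41174 probes and make up 8 of 28482 genes. Where a gene had several probes, the one brightest over all 16 arrays was taken as its main probe, and the others are given beside it. The groups were not used in that choice. All 8 genes were well above background on at least 4 of the 8 arrays of each experiment and entered both comparisons.

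The aortas came from female C57BL/6 mice that all lacked ApoE, were all ovariectomized at 4 to 5 weeks of age and all ate a high-fat Western-type diet, so that they had no ovarian hormone source and were prone to atherosclerosis. Implanted pellets released the progestin medroxyprogesterone acetate (MPA), the progestin norethisterone acetate (NET-A) or placebo, and tissue was taken after 78 to 90 days. The study comprised 2 experiments, each with its own placebo: 4 MPA against 4 placebo aortas, and 4 NET-A against 4 placebo aortas, 1 array each. The segment ran from behind the aortic arch to just before the renal branches. Whether replicates were single or pooled animals was not stated in the labels, so p-values measure only the spread between these samples.

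Levels are log2 intensities relative to each array's own 75th percentile, which is 0, and changes are differences of such levels, progestin minus its placebo. Between 46.3% and 78.5% of the spots of an array were well above background, the lowest being MPA replicate 2. Of the marker lists of the aortic wall, all 8 smooth muscle, all 10 endothelial and all 8 adventitial fibroblast markers were measured above background in both experiments. All 7 brown adipocyte markers were measured too, as were the macrophage, platelet and erythroid lists. The Apoe probe gave signal on each of the 16 arrays, at levels between 0.06 and 1.05, and the labels do not say which part of the gene was disrupted. In bulk tissue, fewer cells of a type and less RNA per cell cannot be told apart.

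Angiopoietins are ligands of the endothelial receptor tyrosine kinase Tie2, encoded by Tek. Angpt1, made by the cells that surround the endothelium, activates Tie2 and keeps vessels quiescent, whereas Angpt2, made by endothelium itself, often blocks that signal and loosens vessels. Angiopoietin-like proteins share the coiled-coil and fibrinogen-like architecture but do not act through Tie2. Several of them control lipid handling, above all Angptl4, an inhibitor of lipoprotein lipase.

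The clearest differences within the family were in the NET-A experiment. Angptl7 stood 2.55-fold higher and Angpt4 stood 2.12-fold higher in NET-A aortas than in their placebo aortas, and for both genes every NET-A array was above every placebo array. Neither passed the threshold of an adjusted p of 0.05 over all genes. With MPA, the same genes changed by 0.07 and -0.17 on the log2 scale, within the spread between replicates. On their main probes, the other 6 genes overlapped between progestin and placebo in both experiments.

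The Angpt4 result rests on a single 60-base probe, A_51_P372393, at chr2:151770254-151770313 on the plus strand of build mm9, the build of the array files. It is shown because this stretch is what was measured as Angpt4. Beside it stand the Angptl1 probe, A_51_P357647, and both Angptl6 probes, A_51_P259571 and A_52_P319199, whose values differed. No letters are in capitals, since the whole probe hybridises.
Angpt4 A_51_P372393: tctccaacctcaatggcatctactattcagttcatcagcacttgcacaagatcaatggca
Angptl1 A_51_P357647: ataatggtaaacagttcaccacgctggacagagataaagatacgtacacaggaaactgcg
Angptl6 A_51_P259571: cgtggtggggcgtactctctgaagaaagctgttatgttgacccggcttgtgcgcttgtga
Angptl6 A_52_P319199: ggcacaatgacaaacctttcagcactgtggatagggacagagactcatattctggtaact

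The Angptl1 probe runs over 1844 bases of the genome, chr1:158788711-158790554 on the plus strand, and so crosses an intron. The same holds for the second Angptl6 probe, which covers 1153 bases at chr9:20678511-20679663 on the minus strand. The main Angptl6 probe lies at chr9:20678326-20678385 on the minus strand. Angptl7 was read by the single probe A_51_P220150 at chr4:147869984-147870043 on the minus strand. An exon annotation of mm9 was not used here, so exon and untranslated positions are not given for these probes.

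**Figure D1:**
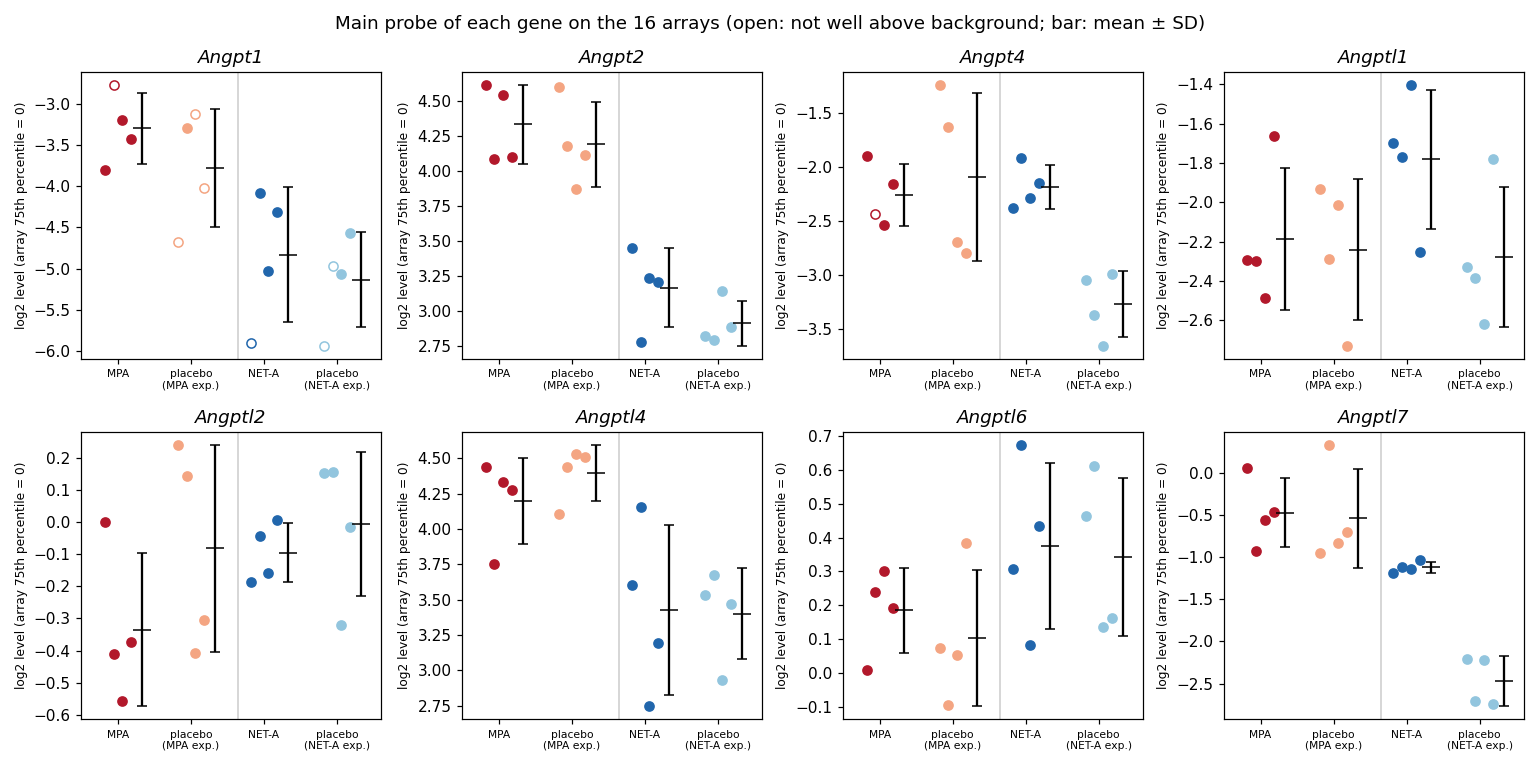
Log2 level of the main probe of each gene (vertical axis, array 75th percentile at 0) on the 16 arrays, 1 point per array, grouped as MPA, its placebo, NET-A and its placebo. Bars show mean and SD of 4 arrays, and open points were not well above background. The NET-A points of Angptl7 lie between -1.19 and -1.03, all above the placebo points of that experiment, and those of Angpt4 do not overlap with placebo either.

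Among the Tie2 ligands, Angpt1 was near the detection limit. Its main probe, A_52_P160328 at chr15:42258569-42258628 on the minus strand, was well above background on 9 of 16 arrays. The level was -3.81, -2.77, -3.20 and -3.42 in MPA aortas and -4.68, -3.30, -3.13 and -4.02 in placebo aortas. These groups overlapped, and the MPA value of -2.77 came from the dimmest array, on which the probe was not well above background. The change was 0.48 ± 0.36 (SE; 95% interval -0.33 to 1.30; limma adjusted p = 0.869 over 15374 genes). In the NET-A experiment the levels were -5.90, -4.09, -5.03 and -4.31 with NET-A against -5.93, -4.97, -5.07 and -4.57 with placebo. Again the groups overlapped, with a change of 0.30 ± 0.44 (95% interval -0.70 to 1.31; limma adjusted p = 0.989 over 21183 genes). The second probe of Angpt1 was well above background on only 2 of 16 arrays, both of the NET-A group, and no fold is given for it.

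Angpt2, the ligand stored and released by endothelium, gave clear signal on every array. Its level was 4.61, 4.08, 4.54 and 4.10 in MPA aortas and 4.60, 4.18, 3.87 and 4.11 in placebo aortas. These values overlap almost throughout, and the change was 0.14 ± 0.21 (95% interval -0.32 to 0.61; limma adjusted p = 0.918). In the second experiment NET-A aortas had 3.45, 2.78, 3.24 and 3.20, against 2.82, 2.79, 3.14 and 2.88 in placebo aortas. Of the 4 NET-A arrays, 3 were above the placebo mean, but the lowest was below every placebo array. The change was 0.26 ± 0.17 (95% interval -0.13 to 0.64; limma adjusted p = 0.905).

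Angpt4, a further Tie2 ligand, had the second largest NET-A change of the family. Its level was -2.38, -1.92, -2.29 and -2.15 in NET-A aortas and -3.05, -3.37, -3.65 and -2.99 in placebo aortas. All 4 NET-A arrays were above all 4 placebo arrays, with a gap between -2.38 and -2.99. The change was 1.08 ± 0.18 (95% interval 0.66 to 1.51; unadjusted p = 0.00033, limma adjusted p = 0.607). The exact two-sided permutation test over the arrays gave p = 0.0286, the smallest that 4 against 4 can give. By unadjusted p the gene stood at place 10 among the 21183 genes tested.

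In the MPA experiment, Angpt4 had -1.89, -2.43, -2.53 and -2.16 with MPA and -1.24, -1.62, -2.69 and -2.79 with placebo. The MPA value of -2.43 came from the dimmest array, on which the probe was not well above background. The placebo aortas were spread over more than the whole MPA range, in a pair of high arrays from slide 1 and a pair of low arrays from slide 2. The change was -0.17 ± 0.36 (95% interval -0.98 to 0.64; limma adjusted p = 0.954). Within slide 1, which held that dim array, the change was -0.73, and within slide 2 it was 0.40. The direction was thus not the same on both slides.

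Angptl7, a secreted protein known from the cornea and from human trabecular meshwork, where glucocorticoids raise it, had the largest change of the 8 genes. Its level was -1.19, -1.12, -1.14 and -1.03 in NET-A aortas and -2.20, -2.71, -2.21 and -2.74 in placebo aortas. The NET-A arrays were tightly grouped (SD 0.06, n = 4), the placebo arrays less so (SD 0.30, n = 4), and there was no overlap. The processed intensities behind these levels were 174 to 347 with NET-A and 44.6 to 125 with placebo, all well above background.

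The Angptl7 change was 1.35 ± 0.16 (95% interval 0.98 to 1.72; unadjusted p = 2.823e-05, limma adjusted p = 0.299), place 2 of 21183 genes by unadjusted p. The exact two-sided permutation p was again 0.0286. Of all genes with values on every array of that experiment, 3.93% had groups that did not overlap, and 1.62% did so with NET-A higher, against 2 of the 8 genes here. No gene of the 21183 passed the adjusted threshold (limma, 0%), and 1308 had an unadjusted p under 0.05, which is 6.17%.

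The MPA experiment gave no such picture for Angptl7. MPA aortas had 0.06, -0.93, -0.55 and -0.47, and placebo aortas had -0.95, 0.33, -0.84 and -0.70. The groups overlapped over most of their range. The change was 0.07 ± 0.32 (95% interval -0.65 to 0.78; limma adjusted p = 0.980).

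**Figure D2:**
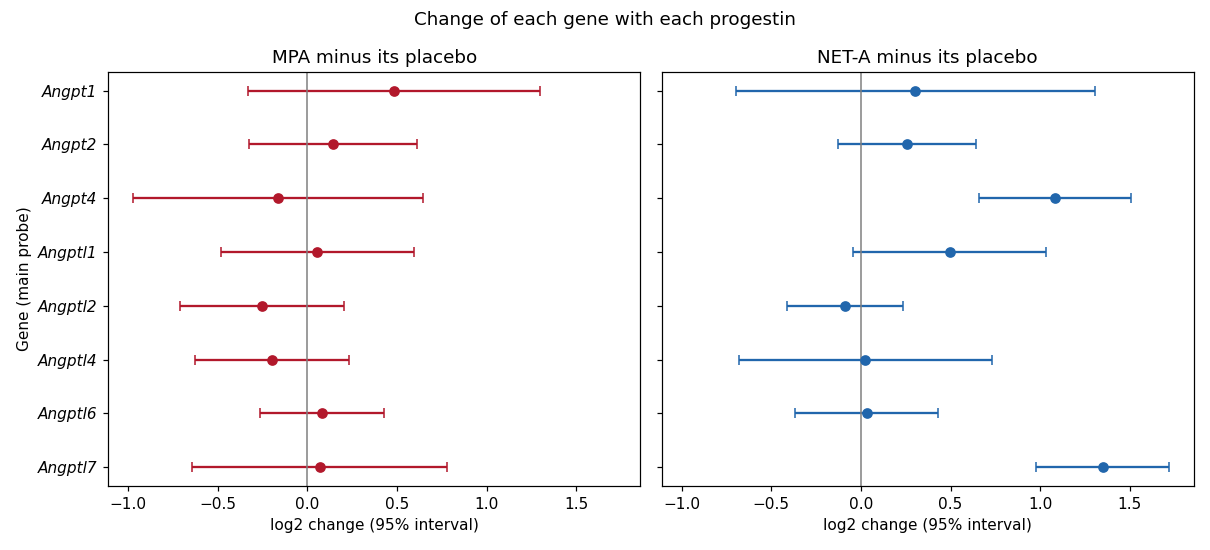
Log2 change of each gene's main probe (horizontal axis) with its 95% interval, MPA minus placebo on the left and NET-A minus placebo on the right, 4 arrays a group. With NET-A the intervals of Angptl7 (0.98 to 1.72) and Angpt4 (0.66 to 1.51) lie above 0, and all other intervals include 0. The intervals are not adjusted for the number of genes.

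Both genes kept their direction on each slide of the NET-A experiment. For Angptl7 the NET-A array exceeded the placebo array by 1.01 on slide 3 and by 1.58 on slide 4, and the difference was 1.40 ± 0.26 (SE) between the pairs of arrays on slide 5. For Angpt4 the values were 0.67 on slide 3, 1.08 on slide 4 and 1.29 ± 0.29 (SE) on slide 5. Each slide was scanned once, so slide and scan were the same division. With any 1 of the 8 arrays left out, the Angptl7 change ranged between 1.26 and 1.44 and the Angpt4 change between 0.95 and 1.17. One alternative moved both by more than 1.5 times: after normexp background correction with an offset of 50, Angptl7 changed by 0.53 ± 0.29 and Angpt4 by 0.23 ± 0.34, while the median of all genes moved to -0.13 from a median of -0.02.

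**Figure D3:**
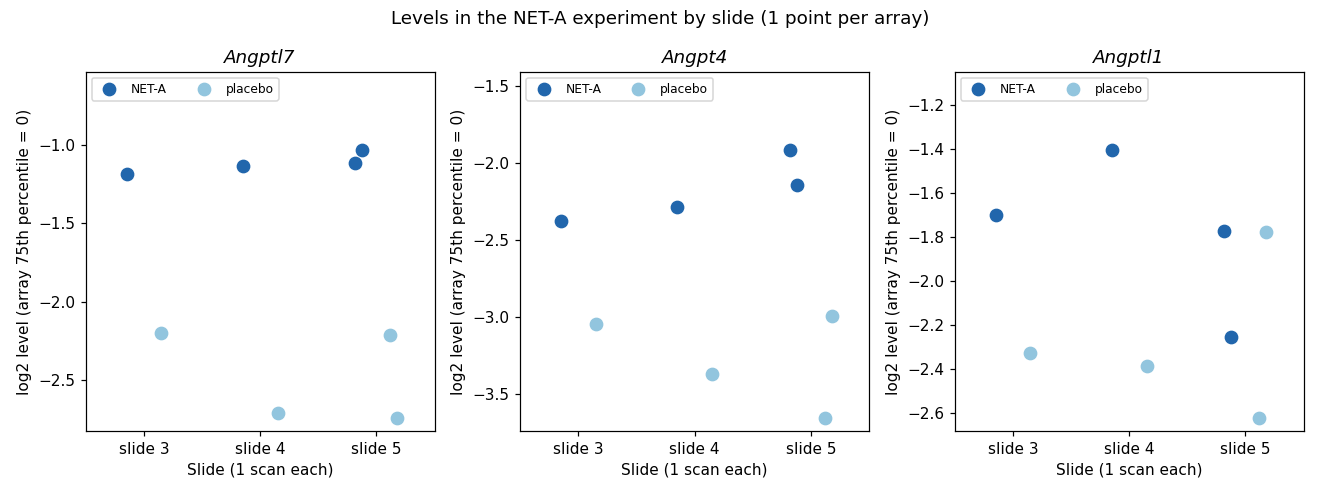
Log2 level (vertical axis) of Angptl7, Angpt4 and Angptl1 in the NET-A experiment by slide, 1 point per array, NET-A left of placebo. On every slide the NET-A points of Angptl7 and Angpt4 lie above the placebo points, while Angptl1 overlaps on slide 5.

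**Figure D4:**
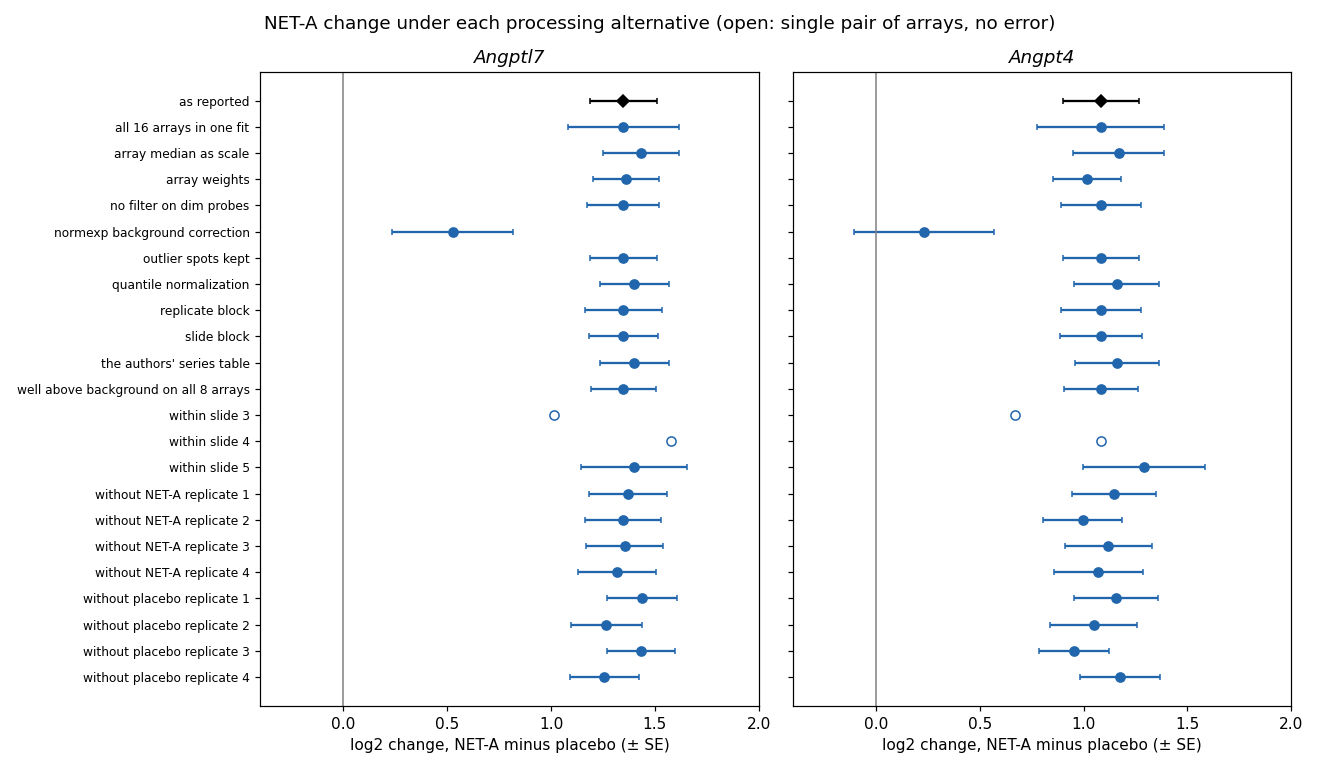
Log2 change with NET-A of Angptl7 and Angpt4 (horizontal axis, ± SE) under each processing alternative, with the reported value at the top as a diamond. Open points are single pairs of arrays and have no error. All 22 alternatives give a positive change for both genes, with the lowest values, 0.53 and 0.23, after normexp background correction.

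The direct test of the difference between both responses, MPA response minus NET-A response over all 16 arrays, gave -1.28 ± 0.37 for Angptl7 (unadjusted p = 0.00326, limma adjusted p = 0.494) and -1.25 ± 0.42 for Angpt4 (unadjusted p = 0.00943, limma adjusted p = 0.565). Of the 15243 genes tested, none passed the adjusted threshold (limma, 0%), while 1040, or 6.82%, had an unadjusted p under 0.05. The other 6 genes had differences between -0.44 (Angptl1) and 0.18 (Angpt1), each with an interval that included 0. A different response of the 2 progestins was thus not shown at this threshold for any gene of the family.

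The placebo groups themselves stood apart for both genes. Angptl7 averaged -2.47 ± 0.30 (SD, n = 4) in the placebo aortas of the NET-A experiment and -0.54 ± 0.59 (SD, n = 4) in those of the MPA experiment. NET-A aortas, at -1.12 ± 0.06 (SD, n = 4), were below each placebo aorta of the MPA experiment. Angpt4 averaged -2.18 ± 0.20 in NET-A aortas, -3.26 ± 0.31 in their placebo aortas and -2.09 ± 0.78 in the placebo aortas of the MPA experiment (SD, n = 4 each). Angpt2 and Angptl4 were also lower in both groups of the NET-A experiment, without overlap for Angpt2. The experiments were run on different slides, with different versions of the scanner software, and a difference of experiment cannot be told apart from these.

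The RefSeq promoter windows of both genes are shown because they were higher together with NET-A. Each runs from 250 bases before to 50 bases after the annotated start, in build GRCm38.p6, a later build than that of the probes. Capitals mark the TATA box motif among the motifs searched.
Angpt4 chr2:151910957-151911256 plus strand: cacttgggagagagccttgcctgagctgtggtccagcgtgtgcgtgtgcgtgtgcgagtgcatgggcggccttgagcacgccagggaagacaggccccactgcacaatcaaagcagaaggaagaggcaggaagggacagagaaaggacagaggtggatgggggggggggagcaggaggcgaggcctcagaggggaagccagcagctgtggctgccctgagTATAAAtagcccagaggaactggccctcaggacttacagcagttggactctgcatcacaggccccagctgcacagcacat
Angptl7 chr4:148500413-148500712 minus strand: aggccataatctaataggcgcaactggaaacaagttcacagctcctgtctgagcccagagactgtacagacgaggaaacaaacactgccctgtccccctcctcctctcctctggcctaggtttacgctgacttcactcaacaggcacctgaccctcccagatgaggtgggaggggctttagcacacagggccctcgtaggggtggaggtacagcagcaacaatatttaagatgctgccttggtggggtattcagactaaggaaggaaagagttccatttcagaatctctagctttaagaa

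Windows of 5 of the 8 genes were matched by symbol: Angpt4, Angptl1, Angptl2, Angptl6 and Angptl7. On both strands, 3 motifs were searched: AGAACA, the steroid receptor half-site, then AGGTCA, a half-site of PPAR receptors, and last TATAAA, the TATA box. Of these, only TATAAA was found, once, in Angpt4, starting 30 bases before the start site. Of all 32851 windows of this length, 19.0% hold AGAACA, 16.3% hold AGGTCA and 13.6% hold TATAAA. The letters of the half-sites are not in these windows, which says nothing about other places in the genes.

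Angptl1, a secreted member of the family with anti-angiogenic activity in experimental models, came next with NET-A. Its level was -1.70, -1.77, -1.40 and -2.25 in NET-A aortas and -2.33, -2.38, -2.62 and -1.78 in placebo aortas. Each NET-A array was above the placebo mean, yet NET-A replicate 4 and placebo replicate 4 crossed over, so the groups overlapped. The change was 0.49 ± 0.23 (95% interval -0.04 to 1.03; limma adjusted p = 0.828; exact two-sided permutation p = 0.0571). With MPA the levels were -2.29, -2.30, -2.49 and -1.66, against -1.93, -2.29, -2.01 and -2.73 with placebo. These overlapped, with a change of 0.06 ± 0.24 (95% interval -0.48 to 0.60; limma adjusted p = 0.978).

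Angptl4 inhibits lipoprotein lipase and is a known target of PPAR receptors, hypoxia and glucocorticoids. Its level was 4.44, 3.75, 4.33 and 4.28 in MPA aortas and 4.11, 4.44, 4.53 and 4.51 in placebo aortas. The groups overlapped, the lowest value being that of MPA replicate 2, and the change was -0.20 ± 0.19 (95% interval -0.63 to 0.23; limma adjusted p = 0.892). NET-A aortas had 3.61, 4.16, 2.75 and 3.20, against 3.53, 3.67, 2.93 and 3.47 in placebo aortas. NET-A aortas held both the highest and the lowest value, and the change was 0.02 ± 0.31 (95% interval -0.68 to 0.73; limma adjusted p = 0.998). The mean level of the 7 brown adipocyte markers was 2.91, 5.36, 2.93 and 3.64 in these NET-A aortas. It lay between 3.79 and 4.25 in their placebo aortas. NET-A replicate 2 was the highest NET-A array for these markers, for Angptl4 and for Lpl, Plin2, Pdk4 and Vegfa. The marker list changed by a median of -0.40 with NET-A (2 of 7 higher) and 0.01 with MPA (4 of 7 higher). The part of these markers in the Angptl4 values was not tested.

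Angptl2, an adipose and macrophage product linked to vascular inflammation, had 3 probes. On its main probe, A_52_P93256, MPA aortas had 0.00, -0.41, -0.56 and -0.37, and placebo aortas had 0.24, 0.15, -0.41 and -0.30. The change was -0.25 ± 0.20 (95% interval -0.71 to 0.20; limma adjusted p = 0.874), with overlap. The second probe, A_52_P853177, changed by -0.26 ± 0.26 with MPA. With NET-A the main probe ranged between -0.19 and 0.01, against -0.32 and 0.16 with placebo, a change of -0.09 ± 0.14 (95% interval -0.41 to 0.24; limma adjusted p = 0.995), and the second probe changed by 0.01 ± 0.14. The third probe, A_52_P533930, was well above background on 6 of 16 arrays only.

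Angptl6, a liver-derived factor in mice that counters obesity when overexpressed, overlapped between groups on its main probe. MPA aortas ranged between 0.01 and 0.30 and placebo aortas between -0.09 and 0.38, a change of 0.08 ± 0.15 (95% interval -0.26 to 0.43; limma adjusted p = 0.943). Its second probe, which crosses an intron, gave 0.50 ± 0.32 with MPA. Here MPA aortas had -1.17, -1.14, -1.15 and -1.04, and placebo aortas had -1.23, -1.34, -2.65 and -1.29. On this probe every MPA array was above every placebo array, with a narrow gap between -1.17 and -1.23. The size of the difference came mostly from placebo replicate 3. With NET-A, both probes changed by less than their SE, by 0.03 ± 0.17 and 0.07 ± 0.21.

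Taken by count on main probes, 5 of the 8 genes were higher with MPA, where 47.8% of all genes were. None had groups that did not overlap, against 3.59% of genes. The second Angptl6 probe, whose MPA and placebo values did not overlap, is not in this count. The median change of the 8 was 0.06, beside -0.01 over all genes. None passed the threshold (limma, 0% of 15374 genes) or had an unadjusted p under 0.05, which 954 genes (6.21%) had. With NET-A, 7 of the 8 were higher, where 45.3% of all genes were, and their median change was 0.28, beside -0.02 over all genes. At an unadjusted p under 0.05, 2 were higher, against 2.5% of genes.

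Markers of blood cells were also higher in the comparison that set Angptl7 and Angpt4 apart. All 10 platelet markers were higher with NET-A, by a median of 1.75, and their mean level lay between -0.66 and 0.71 in NET-A aortas and between -2.08 and -0.89 in placebo aortas. Itga2b, the platelet integrin subunit, changed by 1.93 ± 0.47 (limma adjusted p = 0.607). All 5 erythroid markers were higher, by a median of 1.53, with mean levels between 3.15 and 4.34 in NET-A aortas and between 1.67 and 2.76 in placebo aortas. Of the 9 skeletal muscle markers, all but Pvalb were measured, and these 8 were higher by a median of 1.21. The mean level of the 5 that were measured in both experiments lay between -0.39 and 1.09 in NET-A aortas and between -0.84 and -0.20 in placebo aortas. All 8 macrophage markers were lower, by a median of -0.60, with mean levels between 0.84 and 1.26 in NET-A aortas and between 1.12 and 2.5 in placebo aortas. Of the 8 neutrophil markers, all but Stfa2l1 were measured with NET-A, and 6 of these 7 were higher, by a median of 0.94. The mean level of the 5 neutrophil markers that were measured in both experiments lay between -1.36 and -0.30 in NET-A aortas and between -2.02 and -1.01 in placebo aortas. By array, the platelet mean was -0.66, -0.08, 0.71 and 0.46 in NET-A aortas and -1.54, -2.08, -1.42 and -0.89 in placebo aortas, so these groups did not overlap. The part of these in the Angptl7 and Angpt4 differences was not tested.

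The marker lists differed in the MPA experiment too. All 10 platelet markers were higher, by a median of 0.87, with mean levels between 0.31 and 1.49 in MPA aortas and between -0.17 and 0.28 in placebo aortas. The 6 neutrophil markers measured, all but Ngp and Camp, were higher by a median of 2.37, with mean levels between 0.17 and 2.10 in MPA aortas and between -1.83 and -0.05 in placebo aortas. All 5 erythroid markers were higher, by a median of 1.06. Their mean levels overlapped, between 2.70 and 3.77 in MPA aortas and between 1.74 and 3.27 in placebo aortas. All 8 macrophage markers were lower, by a median of -0.56, with mean levels between 1.88 and 2.07 in MPA aortas and between 2.12 and 3.21 in placebo aortas. The 5 skeletal muscle markers measured were lower by a median of -2.27, at -2.10 to -1.83 in MPA aortas and -1.64 to 3.40 in placebo aortas. No marker on these lists passed the threshold in either experiment, except that S100a8, a neutrophil marker, passed with MPA in the alternative fit with slide as a block. The endothelial list, whose cells carry Tie2, changed by a median of 0.10 with NET-A (8 of 10 higher) and 0.04 with MPA (6 of 10 higher). The smooth muscle list changed by a median of -0.02 with NET-A and 0.00 with MPA.

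**Figure D5:**
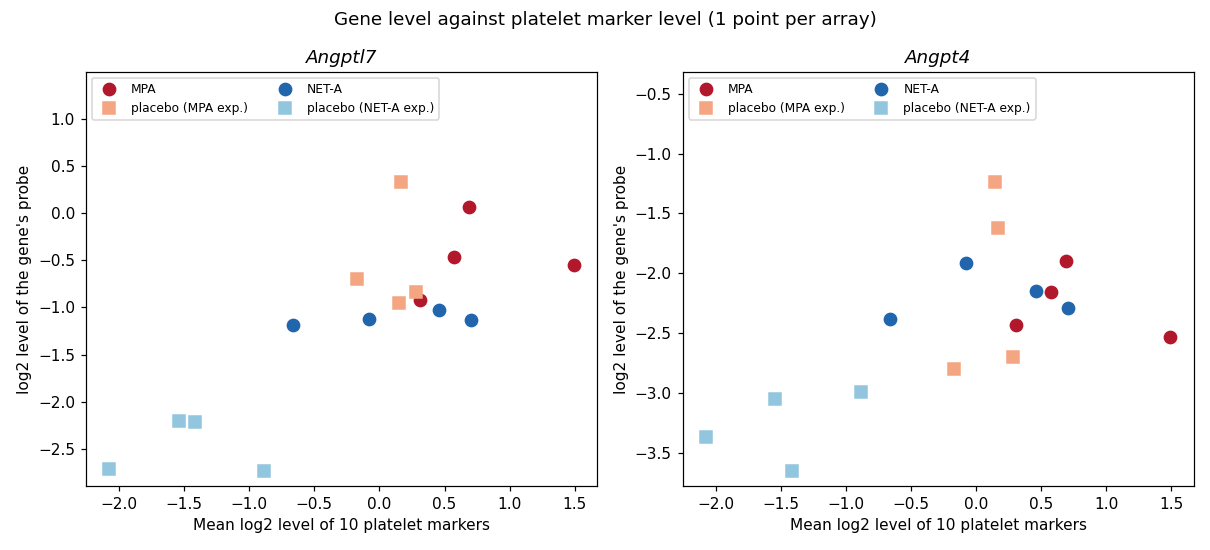
Log2 level of Angptl7 (left) and Angpt4 (right) on the vertical axis against the mean log2 level of 10 platelet markers on the horizontal axis, 1 point per array, circles for progestin and squares for placebo. The placebo arrays of the NET-A experiment lie low on both axes. The 4 NET-A arrays span platelet means from -0.66 to 0.71 at Angptl7 levels between -1.19 and -1.03.

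By likeness over the 16 arrays, with each experiment's mean taken off, the 3 genes nearest to Angptl7 were Cplx2 (Pearson r = 0.82), Zbtb11os1 (0.80) and Itga2b (0.78) among 14517 genes. Within the MPA experiment their r was 0.77, 0.40 and 0.76, and within the NET-A experiment 0.86, 0.93 and 0.79. Itga2b does not stand for its whole list. Against the mean of the 10 platelet markers, r of Angptl7 was 0.13 in the MPA experiment and 0.84 in the NET-A experiment. For Angpt4 these were -0.12 and 0.85. Nearest to Angpt4 were Gm8818 (0.85), Prkaca (0.84) and Cenpb (0.83). Nearest to Angptl1 were Tmub2 (0.81), Dhx8 (0.79) and Negr1 (0.78). Angpt2 was nearest to Specc1 (0.87), Mllt6 (0.86) and Vezf1 (0.85). Angpt1 was nearest to Isoc1 (0.83), Bag4 (0.80) and Mrps15 (0.79). Angptl2 was nearest to Ywhae (0.89), Atp9a (0.88) and Ptdss1 (0.88). Angptl4 was nearest to an unnamed array transcript, Aldh1a3 (0.76) and Lgals9 (0.76), and Angptl6 to Hcar2 (0.80), Ap5s1 (0.79) and Isoc2b (0.78). The correlations with single genes are the highest of many over few arrays that share slides and scaling. All correlations here are given as a description only. Only each experiment's mean was taken off, so a shared difference between progestin and placebo also raises r. Within 1 experiment r could be lower, as for Angptl2 with Ptdss1 (0.94 in the MPA experiment, 0.62 in the NET-A experiment).

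No receptor of the angiopoietins passed the threshold. Tek, the receptor itself, changed by 0.18 ± 0.26 with MPA and by 0.32 ± 0.27 with NET-A, and Tie1, its orphan partner, by 0.15 ± 0.25 and 0.32 ± 0.33. Of 18 listed Tie receptors and signalling partners, 17 were measured in the MPA experiment (9 higher, 8 lower, median 0.03) and 18 in the NET-A experiment (9 higher, 9 lower, median 0.02), and none passed the threshold. Ptprb, the endothelial phosphatase that dephosphorylates Tie2, changed by 0.44 ± 0.18 with NET-A (unadjusted p = 0.0379, limma adjusted p = 0.788) and by 0.44 ± 0.44 with MPA. Grb14, an adaptor protein, changed by 0.37 ± 0.15 with NET-A, and Foxo1, a transcription factor that Tie2 signalling restrains, by 0.22 ± 0.14.

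Around lipoprotein lipase, the enzyme that Angptl4 inhibits, values lay on both sides of 0. Lpl itself changed by -0.29 ± 0.33 with MPA and by 0.07 ± 0.41 with NET-A, and Gpihbp1, which anchors the enzyme on capillary endothelium, by 0.06 ± 0.23 and 0.16 ± 0.30. Of 18 listed lipases and partners, 16 were measured in each experiment, with 5 higher and 11 lower with MPA and 9 higher and 7 lower with NET-A, none past the threshold. Apoc3, a liver-made apolipoprotein that restrains lipoprotein lipase, changed by -0.95 ± 0.41 with MPA. Vldlr, a lipoprotein receptor, changed by 0.72 ± 0.21 with NET-A (unadjusted p = 0.00918, limma adjusted p = 0.632).

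The VEGF list, growth factors that act beside the angiopoietins on endothelium, gave 5 higher and 4 lower of 9 measured with MPA and 7 higher and 3 lower of 10 with NET-A. None of them passed the threshold. Vegfd, a ligand of lymphatic and blood endothelium, was at 2.73 ± 0.16 in NET-A aortas and 2.14 ± 0.13 in placebo aortas (SD, n = 4 each). Its lowest NET-A value, 2.56, was above its highest placebo value, 2.29. It changed by 0.60 ± 0.13 (unadjusted p = 0.00169, limma adjusted p = 0.607). With MPA, Vegfd changed by -0.08 ± 0.24. Vegfa changed by -0.22 ± 0.16 with MPA and 0.14 ± 0.40 with NET-A. With MPA, Vegfc changed by 0.26 ± 0.14 and Flt1, a receptor of Vegfa, by 0.27 ± 0.16.

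The lists of regulators known for Angptl4 behaved as follows, with no gene past the threshold in any of them. Of 18 measured PPAR receptors and targets, 7 were higher and 11 lower with MPA (median -0.05), and of 19 measured, 9 were higher and 10 lower with NET-A (median -0.08). Plin2, a lipid droplet coat protein, changed by -0.41 ± 0.21 with MPA and -0.55 ± 0.40 with NET-A, and Pdk4, a kinase that restrains glucose oxidation, by -0.42 ± 0.23 and -0.17 ± 0.60. Of 13 hypoxia targets, 12 were lower with MPA (median -0.13) and 8 with NET-A (median -0.11). With 1 array left out, the MPA count of lower genes ranged between 8 and 12. Pgk1 changed by -0.35 ± 0.17 and Pfkfb3 by -0.24 ± 0.15 with MPA, and P4ha1 by -0.29 ± 0.17 with NET-A.

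The glucocorticoid targets stood on opposite sides of 0 in the experiments. All 10 measured were lower with MPA (median -0.73, and 9 or 10 lower with any 1 array left out). With NET-A, 9 of 10 were higher (median 0.48, and 8 or 9 higher with any 1 array left out). Over all genes, 47.8% were higher with MPA and 45.3% with NET-A. Sgk1, a kinase that glucocorticoids induce, was at 4.79 ± 0.33 in MPA aortas and 5.65 ± 0.26 in placebo aortas, a change of -0.86 ± 0.21 (limma adjusted p = 0.662), and changed by 0.51 ± 0.24 with NET-A. Errfi1, a feedback inhibitor of growth factor receptors, changed by -0.75 ± 0.24 with MPA and 0.86 ± 0.31 with NET-A, and Map3k6 by -0.70 ± 0.24 and 0.30 ± 0.19. The placebo groups stood apart for these genes too. Sgk1 was at 3.95 ± 0.41 in NET-A aortas and 3.45 ± 0.30 in their placebo aortas (SD, n = 4 each), both below the MPA aortas. In the placebo aortas of the MPA and NET-A experiments, Map3k6 averaged 4.00 and 1.24, and Errfi1 averaged 3.71 and 2.89. In the test of the difference itself, all 10 were lower, where 49.6% of all genes were above 0. Of the 10, 6 had an unadjusted limma p under 0.05, against 6.82% of all genes. None of the 10 passed the threshold (smallest limma adjusted p = 0.288). With MPA, macrophage and skeletal muscle markers were lower and neutrophil, platelet and erythroid markers higher in the same arrays, and with NET-A, macrophage markers were lower and skeletal muscle, neutrophil, platelet and erythroid markers mostly higher, with the values given above. The part of these in the values of the glucocorticoid targets was not tested.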

How the data were processed

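RNA of 16 aortas (100 ng each) was labelled with Cy3 and hybridised to one-colour Agilent arrays, per the labels' protocols. Per the file headers, the authors' scanner files came from Feature Extraction 10.7.1.1 (MPA experiment) and 11.0.1.1 (NET-A experiment) with mm9 annotation, and hold intensity per spot as a processed signal. The deposited series table holds log2 values centred per probe and was used only as an alternative. Its values correlated at 0.988 to 1.00 per array with the processed signals after quantile normalization within each experiment and centring. The series table is thus close to the quantile alternative, and these are not separate checks. Its array medians lie between -0.03 and 0.02, and its normalization was not given in the sources used here. Gene names and sequences are in the MPA files and were joined by probe name. The NET-A files hold median but no mean signals, so normexp used those there.

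Processed signals were put on log2, averaged over spots of a probe without outlier-marked spots and set to each array's 75th percentile (41174 probes). Genes well above background on at least 4 of 8 arrays were tested with limma 3.58.1 in R 4.3.3, two-sided, with Benjamini-Hochberg adjustment over all genes and a threshold of 0.05, per experiment, and over all arrays for the difference of responses. On simulated data with a log2 change of 1, 66% of changed genes were recovered in the NET-A comparison (21183 genes), 34% in the MPA comparison (15378 genes) and 34% in the difference of responses (15247 genes). The simulation changed 50 genes at each log2 change of 1, 2, 3 and 4 at once, with independent normal noise. Many changed genes ease the adjusted threshold, so these shares are not the power in these data, where no gene passed.

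Named were all 8 genes with every probe, of each list the 3 genes with the smallest p in either comparison, and Tek, Tie1, Lpl, Gpihbp1 and Vegfa, and the 3 most alike genes per member. Some genes that this rule names are not reported here. Itga2b is named also as a platelet marker. The genes and lists were chosen with earlier results of these data known. Alternatives were normexp, quantile and median scaling, the series table, other filters, slide and replicate blocks, array weights, other probes and leaving out each array. The number of arrays limits the precision.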

Additional observations from a re-analysis of the deposited data

How the results depend on the processing

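No member was called by limma under any alternative; the smallest adjusted p was 0.105, for Angpt1 with MPA after normexp (change 1.09), whose probe was well above background on 4 of the 8 arrays compared. The NET-A changes of Angptl7, Angpt4 and Angptl1 kept their direction in 22 of 22 alternatives, with ranges of 0.53 to 1.58, 0.23 to 1.29 and 0.03 to 0.98. With MPA, Angptl7 kept its direction in 16 of 21, Angpt4 in 17 of 20 and Angptl1 in 15 of 21. The difference of responses kept its direction in 26 of 26 for Angptl7 (-1.46 to -0.27) and in 24 of 25 for Angpt4, which gave 0.17 after normexp. The cause was not tested. Over all genes, 1 passed the threshold with MPA when all 16 arrays were fitted together (AK052744) and 1 with slide as a block (S100a8). These genes were named after their values were seen. With 1 array left out, the count over all genes ranged between 0 and 1 for the difference of responses, the 1 being Fam107a without NET-A replicate 1. Median scaling moved the share of genes above 0 to 35.8% from 47.8% with MPA, to 60.9% from 45.3% with NET-A and to 30.7% from 49.6% for the difference, whose median moved to -0.17.

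The deviations of arrays of the same replicate number correlated at -0.23 to 0.24 in the MPA experiment and at -0.20 to 0.24 in the NET-A experiment. So few pairs cannot exclude a pairing, and whether the numbers pair the samples is not known. With a replicate block, 0 genes were called with MPA and 0 with NET-A, and 1 (Sall4) in the difference of responses. Angptl7 then had an adjusted p of 0.537 with NET-A.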
